A study of Mus musculus with 12 samples.

Results

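Piezo1, Piezo2, Stoml3 and Tmem150c are the genes described here, 4 of the 24490 genes with an expression value in this RNA-sequencing study of mouse dorsal root ganglia (DRG). They were taken by name, as genes linked to the conversion of mechanical force into electrical current in sensory neurons. All samples came from adult male C57Bl/6 mice, and DRG of all spinal levels were combined. The 3 groups held 4 samples each. Intact DRG were snap frozen whole, with 1 mouse per sample. Unsorted DRG were digested with dispase, collagenase and DNAse, triturated and filtered through a mesh, with 2 mice per sample. MACS-sorted DRG went through the same dissociation, after which cells bound by a biotinylated cocktail of antibodies against non-neuronal cells were held back on a magnetic column and the cells that passed were collected, with 8 mice per sample. Expression is given in FPKM, a fragment count scaled by transcript length and by the depth of the sample, so that levels can be compared between genes per unit of length.

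Piezo1 and Piezo2 are large ion channels that open when the membrane is stretched or indented. Piezo2 is the main channel of light touch and proprioception and is made in many DRG neurons, whereas Piezo1 is best known from endothelial cells, red blood cells and other non-neuronal tissues. Stoml3 is a membrane protein of the stomatin family that sensitises Piezo channels. Tmem150c, also called Tentonin 3, is a membrane protein associated with slowly adapting mechanically activated currents, whose role as a channel or as a modulator of Piezo2 is debated.

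The samples were checked with lists of marker genes. Against unsorted DRG, 8 of 8 satellite glial genes and 6 of 7 Schwann cell genes fell in MACS-sorted DRG, while 9 of 11 nociceptor genes rose and 11 of 12 genes of large-diameter touch neurons and proprioceptors fell. The MACS-sorted samples also held RNA of other sources. None of the 7 endothelial genes passed the limma test between MACS-sorted and unsorted DRG, and 7 of 7 red blood cell genes tested were higher. Intact replicate 1 stood apart through skeletal muscle genes, whose summed level was 2602 FPKM against 14.2 to 58.5 in the other intact samples. Its difference was not confined to muscle genes. Over 3267 genes of high level, its median absolute log2 difference from the other intact samples was 0.293 to 0.336. Among those other samples it was 0.0658 to 0.0839. Results that rest on intact replicate 1 are also given without it. The depth, estimated from the spacing of the lowest values, lay between 16700000 and 19800000 fragments in intact samples. It was 16000000 to 18800000 in the unsorted group and 13800000 to 17500000 after sorting. In bulk RNA, fewer cells of a type and less RNA per cell cannot be told apart.

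The 4 genes differed widely in level. Piezo2 was the highest, above 94.9% of all genes in intact DRG and above 97.0% in MACS-sorted DRG. Tmem150c was above 89.4% of genes in intact and 92.8% in MACS-sorted DRG. Both exceeded 5 FPKM in each of the 12 samples. Piezo1 lay near the middle of all genes, above 49.7% of them in intact DRG, and Stoml3 was listed at 0 in 8 of 12 samples. Per unit of length, Piezo2 exceeded Piezo1 by a factor of 30.6 to 50.3 in intact DRG, 52.2 to 61.0 in unsorted DRG and 48.0 to 133 after sorting. The factor of Piezo2 over Tmem150c was 1.15 to 2.27 in intact DRG, 1.90 to 2.01 in unsorted DRG and 1.83 to 2.49 after sorting. The order Piezo2, Tmem150c, Piezo1, Stoml3 held in all 12 samples.

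**Figure D1:**
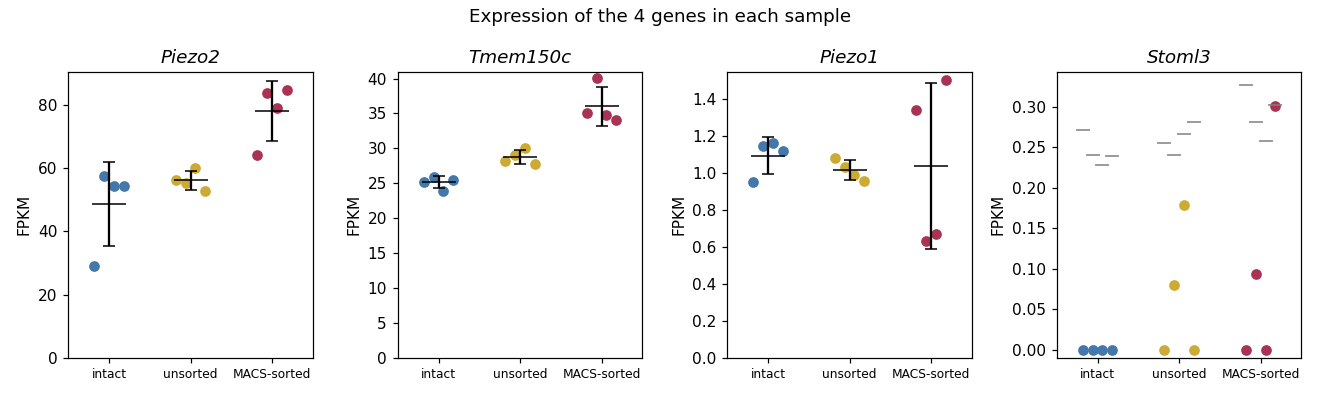
Expression in FPKM (vertical axes, 1 scale per gene) of Piezo2, Tmem150c, Piezo1 and Stoml3 in intact, unsorted and MACS-sorted DRG. Points are samples in order of replicate number, black marks show the mean ± SD (n = 4), and for Stoml3 grey marks show the level that 3 fragments would give in each sample. The 4 MACS-sorted samples lie above all others for Piezo2 and Tmem150c, and every Stoml3 value lies below its grey mark.

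Piezo2 was higher in MACS-sorted than in unsorted DRG. Its gene model lies on chromosome 18 of mm10 from 63010213 to 63387183, on the minus strand, with 54 exons. MACS-sorted replicates 1 to 4 measured 64.2, 83.9, 79.2 and 84.8 FPKM, averaging 78.1 ± 9.53 (SD, n = 4). Unsorted replicates 1 to 4 measured 56.4, 55.3, 60.2 and 52.9 FPKM, averaging 56.2 ± 3.03 (SD, n = 4). The groups did not overlap, and MACS-sorted replicate 1 was the closest to the unsorted samples. The log2 fold change was 0.47 (SE 0.095), and Piezo2 passed limma's test with an adjusted p of 0.00285. When all 12 samples shared 1 fit, the adjusted p was 0.0576.

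Tmem150c rose together with Piezo2. It lies on chromosome 5 from 100077873 to 100159808, on the minus strand, with 8 exons. MACS-sorted replicates 1 to 4 held 35.1, 40.2, 34.8 and 34.1 FPKM, averaging 36.0 ± 2.78 (SD, n = 4). Unsorted replicates 1 to 4 held 28.2, 29.0, 30.0 and 27.8 FPKM, averaging 28.8 ± 0.973 (SD, n = 4). All MACS-sorted samples were above all unsorted samples. The log2 fold change was 0.32 (SE 0.069, limma adjusted p = 0.00396).

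Piezo1 did not pass the test between these groups, and its MACS-sorted samples fell into a high and a low pair. It lies on chromosome 8 from 122481698 to 122551329, on the minus strand, with 51 exons. MACS-sorted replicates 1 to 4 measured 1.34, 0.630, 0.671 and 1.499 FPKM, and unsorted replicates 1 to 4 measured 1.08, 1.03, 0.987 and 0.954 FPKM. Replicates 1 and 4 were above every unsorted sample and replicates 2 and 3 below. The means were 1.03 ± 0.449 and 1.01 ± 0.0544 FPKM (SD, n = 4 each), and the log2 fold change was -0.06 (SE 0.30, limma adjusted p = 0.886), while the ratio of both means, as log2, was 0.03. The sign of the fold change turned without MACS-sorted replicate 2 (0.12) or 3 (0.10) and under quantile normalization (0.55, adjusted p = 0.0580).

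Of the 3 genes tested, 2 were higher and 0 lower in MACS-sorted than in unsorted DRG by limma, with the same counts at an unadjusted p under 0.05. Of all 12038 genes tested, 18.8% were higher and 27.7% lower. The study's stricter rule asks in addition that group means differ by more than 0.5 as a log2 ratio and that the larger mean exceed 5 FPKM, and 20.7% of all genes met it in either direction. Piezo2 (log2 ratio of means 0.47) and Tmem150c (0.33) fell short of that fold. Piezo2 reached it when samples were scaled by median-ratio size factors or after red blood cell genes were removed, and when unsorted replicate 3 or MACS-sorted replicate 1 was left out. Quantile normalization shifted the median log2 fold change of all genes from -0.04 to 0.10 and moved the shares to 33.0% higher and 22.6% lower. The fold changes of Piezo2 and Tmem150c under it were 0.49 and 0.37.

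Unsorted was then compared with intact DRG, which differ by the dissociation. Neither Piezo2 nor Piezo1 passed the test. In intact replicates 1 to 4, Piezo2 was at 29.0, 57.5, 54.2 and 54.4 FPKM, a mean of 48.8 ± 13.3 (SD, n = 4). Replicate 1 was the low sample, and the other 3 lay within the range of unsorted DRG. The log2 fold change of unsorted against intact DRG was 0.25 (SE 0.20, limma adjusted p = 0.384), and 0.02 without intact replicate 1 (adjusted p = 0.809). Piezo1 was at 0.948, 1.14, 1.16 and 1.12 FPKM in intact replicates 1 to 4, a mean of 1.09 ± 0.0983 (SD, n = 4), and had a log2 fold change of -0.10 (SE 0.15, limma adjusted p = 0.661).

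Tmem150c was at 25.2, 25.9, 23.9 and 25.5 FPKM in intact replicates 1 to 4, a mean of 25.1 ± 0.843 (SD, n = 4), below every unsorted sample. Its log2 fold change was 0.19 (SE 0.061), at the edge of the threshold with a limma adjusted p of 0.0490. The call was lost with median-ratio factors (adjusted p = 0.0558), with quantile normalization (0.160), with removal of red blood cell genes (0.179) and without any 1 sample other than intact replicate 1, while the fold change stayed between 0.14 and 0.21. In this comparison 1 of 3 genes was higher and 0 were lower by limma (1 and 0 at an unadjusted p under 0.05), beside 14.8% and 7.79% of 12392 genes. The stricter rule was met by 7.04% of all genes and by none of the 3.

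Both genes were also higher in MACS-sorted than in intact DRG. This comparison shares its samples with the other two. The log2 fold change was 0.72 (SE 0.21, limma adjusted p = 0.0264) for Piezo2 and 0.52 (SE 0.085, limma adjusted p = 0.00130) for Tmem150c, and neither gene's groups overlapped. Piezo1 had -0.16 (SE 0.32, adjusted p = 0.730), which became 0.02 without MACS-sorted replicate 2 and 0.68 under quantile normalization. Here 2 of 3 genes were higher and 0 lower by limma, the same counts as at an unadjusted p under 0.05, beside 14.1% and 20.6% of 12234 genes, and the 2 also met the stricter rule, as did 18.3% of all genes. For Piezo2 the size depended on intact replicate 1, without which the log2 fold change was 0.49 (adjusted p = 0.00693). Without MACS-sorted replicate 2, 3 or 4 its adjusted p was 0.0648, 0.0634 or 0.0585. From low to high, the groups ran intact, unsorted, MACS-sorted for Piezo2 and Tmem150c. Intact and unsorted DRG were not separated for Piezo2, and none of the 3 pairs of groups was separated for Piezo1.

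The ratio of each gene to Piezo2 within a sample was compared with exact two-sided permutation tests, for which 4 against 4 samples allow no p below 0.0286. Scaling a whole sample by 1 factor changes this ratio only through the 0.1 FPKM added before the log. Quantile normalization can change it. Between MACS-sorted and unsorted DRG, the log2 ratio of Tmem150c to Piezo2 differed by -0.14 (exact permutation p = 0.171, 0.343 adjusted over 6 ratios), and that of Piezo1 to Piezo2 by -0.53 (exact permutation p = 0.314, 0.471 adjusted). Single samples weighed on both values. The former was -0.22 without MACS-sorted replicate 1 and -0.075 without replicate 4, and the latter was -0.31 without MACS-sorted replicate 2. The ratio of Piezo1 to Piezo2 was lower in all 4 unsorted than in all 4 intact samples, by a mean log2 difference of -0.35 (exact permutation p = 0.0286, 0.171 adjusted), which was -0.18 without intact replicate 1. None of the 6 ratios passed after adjustment. With this smallest p, a ratio could pass only if most of the 6 separated completely, so the adjusted result cannot decide on any single ratio.

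The genes were next set against 8 pan-neuronal genes, such as Tubb3 and Snap25, in the same sample. Their sum ranged from 3507 to 3742 FPKM in intact DRG, from 4197 to 4531 in unsorted DRG and from 3770 to 4841 after sorting. The list itself was not constant. Of the 8, 4 rose from intact to unsorted DRG. Between unsorted and MACS-sorted DRG 3 rose and 2 fell, the latter being Snap25 and Tubb3 with log2 fold changes of -0.94 and -0.38. Relative to the mean of these genes on the log2 scale, Tmem150c was higher by 0.23 in MACS-sorted than in unsorted DRG without overlap (exact permutation p = 0.0286, 0.129 adjusted over 9 tests). Piezo2 was higher by 0.37 (exact permutation p = 0.0571, 0.171 adjusted). Piezo1 differed by -0.39 in unsorted than in intact DRG, again without overlap (exact permutation p = 0.0286, 0.129 adjusted). No difference passed after adjustment. Even a difference without overlap could pass only if most of the 9 tests separated completely, so the adjusted result cannot decide on any single gene.

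Piezo2 was then compared with genes that mark classes of sensory neurons. Th, Slc17a8 and Fam19a4 mark C-fibre low-threshold mechanoreceptors, thin neurons of gentle touch. All 3 rose between unsorted and MACS-sorted DRG, with log2 fold changes from 1.54 to 2.08. Their summed level was 133, 335, 183 and 305 FPKM for MACS-sorted replicates 1 to 4 and 45.2 to 70.9 in unsorted samples. Replicate 1 was the lowest of the MACS-sorted samples both for these genes and for Piezo2. Among intact samples, replicate 1 was the highest for these genes (93.0 FPKM against 76.0 to 85.4) but the lowest for Piezo2. From intact to unsorted DRG, 2 of the 3 genes fell, with a median log2 fold change of -0.50 for the list. Piezo2 did not pass the test in that comparison.

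Nociceptor genes also rose, from 2710 to 2832 FPKM summed in unsorted to 3099 to 4300 in MACS-sorted samples, with a median log2 fold change of 0.74. The large-diameter list went the other way, from 2042 to 2435 FPKM in unsorted samples to 400 to 564 in MACS-sorted samples, with a median log2 fold change of -2.79 against -0.04 over all genes. Calb1, a calcium-binding protein of some of these neurons, went from 22.4 ± 1.504 to 3.07 ± 1.35 FPKM (SD, n = 4). Ntrk2, also on the list, is made by non-neuronal cells as well, whose markers fell in the same samples. Piezo2 thus rose in samples in which markers of large touch and proprioceptive neurons were low. The part of these neuron classes in the level of Piezo2 was not tested.

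**Figure D2:**
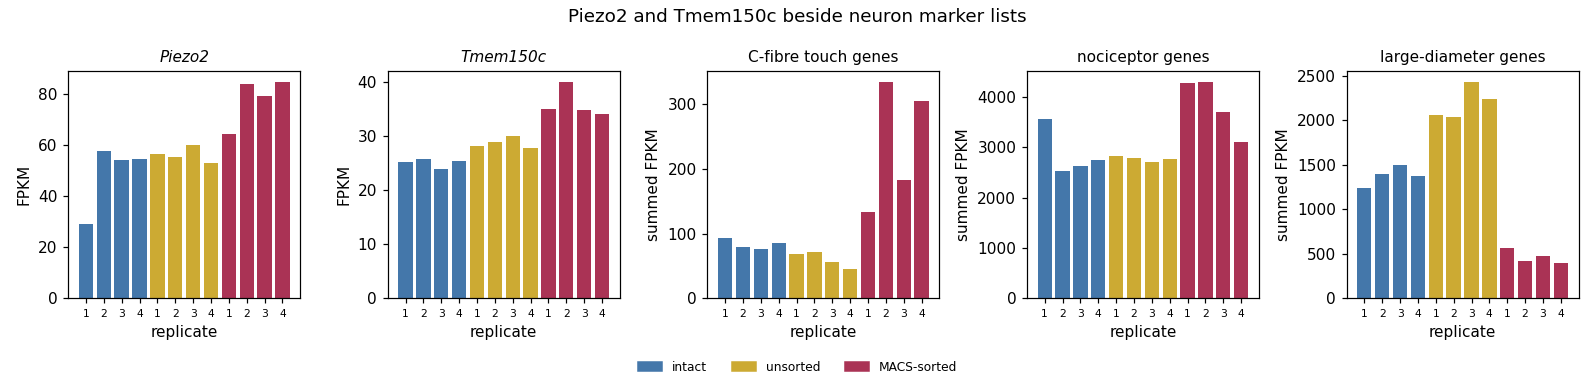
Piezo2 and Tmem150c in FPKM, and the summed FPKM of C-fibre touch, nociceptor and large-diameter marker lists, in each of the 12 samples. Bars are samples, coloured by group and numbered by replicate, and all axes start at 0. In MACS-sorted samples Piezo2 is at 64.2 to 84.8 FPKM while the large-diameter list is at 400 to 564, below every unsorted sample.

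Intact replicate 1, the low sample for Piezo2, had the highest nociceptor sum of its group (3551 FPKM against 2529 to 2744) and the lowest large-diameter sum (1245 against 1379 to 1496), although that list holds Pvalb, which skeletal muscle also makes and which was at 441 FPKM there against at most 67.8. Tmem150c in the same sample, 25.2 FPKM, lay within the range of the other intact samples.

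The split of Piezo1 among MACS-sorted samples was set beside markers of vessels and blood, where this channel is known to act. The endothelial list, with Pecam1 and Cdh5, summed to 58.5, 15.0, 51.8 and 82.1 FPKM in MACS-sorted replicates 1 to 4, against 48.0 to 60.9 in the unsorted group and 25.6 to 28.1 in the intact group. Replicate 4 was highest and replicate 2 lowest for both Piezo1 and the endothelial list. Replicate 3 had a low Piezo1 value with an endothelial sum close to that of replicate 1. Between intact and unsorted DRG, 7 of 7 endothelial genes rose while Piezo1 stayed between 0.948 and 1.16 FPKM.

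The red blood cell list gave sums of 1476, 1986, 9891 and 12690 FPKM for MACS-sorted replicates 1 to 4, and 88.1 to 614 for the other 8 samples. Replicates 3 and 4 were the high pair for these genes and replicates 1 and 4 for Piezo1. The part of endothelial or blood RNA in the Piezo1 level was not tested.

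**Figure D3:**
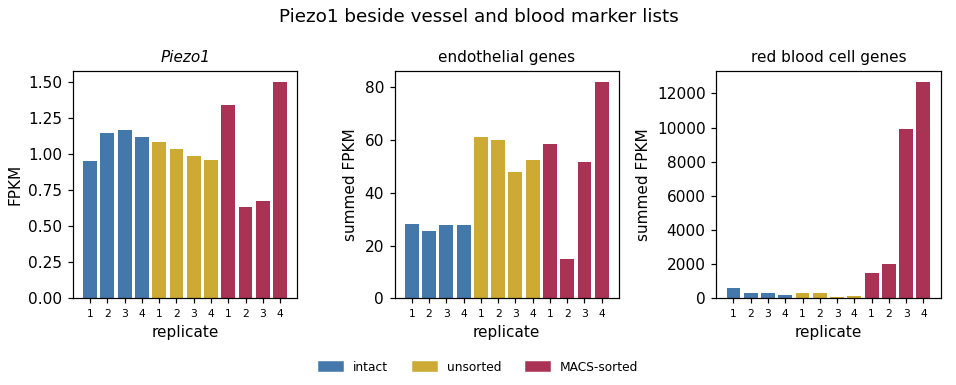
Piezo1 in FPKM and the summed FPKM of the endothelial and red blood cell lists in each sample. Bars are samples, coloured by group and numbered by replicate, and all axes start at 0. Piezo1 in MACS-sorted replicates 2 and 3 (0.630 and 0.671 FPKM) lies below all other samples, the endothelial list is lowest in replicate 2, and the red blood cell list is highest in replicates 3 and 4.

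Stoml3 was at or near 0 throughout. It was listed at 0 in intact replicates 1 to 4. In unsorted replicates 1 to 4 it was at 0, 0.0799, 0.179 and 0 FPKM, and in MACS-sorted replicates 1 to 4 at 0, 0.0933, 0 and 0.302 FPKM. Above 0 were 2 unsorted and 2 MACS-sorted samples. With a fragment length of 200 bases and the estimated depths, these 4 values correspond to 0.998, 2.00, 0.997 and 2.98 fragments. Counting 3 fragments as the limit that a count of 0 allows, a sample at 0 does not exclude a level of up to 0.228 to 0.327 FPKM, depending on its depth. This limit equals 0.419% of the mean Piezo2 level in MACS-sorted and 0.555% in intact DRG, for the shallowest sample of each group. Stoml3 lay under the filter of a mean of 1 FPKM and was not tested in the main comparisons. No fold is given, since the values are at or below the level of 3 fragments.

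The region that the deposited table gives for Stoml3 bears on this value. It runs on chromosome 3 of mm10 from 53488793 to 53507652, on the plus strand, which is the start to the stop codon of the GENCODE transcript of Stoml3, with 7 exons and 864 coding bases. The transcript runs from 53488727 to 53508502 and has 1780 bases, so 916 bases of untranslated exon lie outside that region. By contrast, the regions of Piezo1 (8219 bases of exon) and Piezo2 (10724) each cover a GENCODE transcript in full, and that of Tmem150c leaves out 1 of 3084 bases. The effect on the Stoml3 level was not tested. Both ends of the region are printed here from the GENCODE transcript to show where it begins and stops, with the start codon (first line, exon 1, chr3:53488793-53488832) and the stop codon (second line, exon 7, chr3:53507428-53507652) in capitals.
Stoml3 first coding bases: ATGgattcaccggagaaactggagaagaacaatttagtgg
Stoml3 last coding exon part: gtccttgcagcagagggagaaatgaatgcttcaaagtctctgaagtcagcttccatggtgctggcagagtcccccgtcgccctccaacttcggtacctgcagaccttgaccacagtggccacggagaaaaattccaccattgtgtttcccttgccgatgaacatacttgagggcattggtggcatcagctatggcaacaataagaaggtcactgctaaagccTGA

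Other genes of mechanotransduction were taken from a list of 47, of which 34 were tested in each comparison. Between MACS-sorted and unsorted DRG, 8 (23.5%) rose and 16 (47.1%) fell, beside 18.8% and 27.7% of all genes, with a median log2 fold change of -0.25 against -0.04 over all genes. From intact to unsorted DRG, 10 (29.4%) rose and 2 (5.88%) fell, beside 14.8% and 7.79% of all genes. The 10 became 4, 6, 5 or 6 without unsorted replicate 1, 2, 3 or 4. Without intact replicate 1 the 10 became 13 and the 2 became 4, beside 22.2% and 13.6% of all genes. Against intact DRG, 8 (23.5%) rose and 12 (35.3%) fell in MACS-sorted DRG, beside 14.1% and 20.6% of all genes.

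Among relatives of Stoml3, Stom, the founding stomatin that modulates acid-sensing channels, rose in MACS-sorted against unsorted DRG from 9.99 ± 1.43 to 21.6 ± 6.20 FPKM (SD, n = 4), a log2 fold change of 1.07 (SE 0.20, limma adjusted p = 0.00172). Stom is also abundant in red blood cells, and the values of the red blood cell list stand above. Its values were 26.2, 14.9, 17.7 and 27.5 FPKM for MACS-sorted replicates 1 to 4, with replicates 1 and 4 high as for Piezo1. Stoml1 and Stoml2 were measured at 61.4 ± 6.00 and 15.0 ± 1.40 FPKM (SD, n = 4) in MACS-sorted DRG and did not pass the test. Tmem150a and Tmem150b, the relatives of Tmem150c, were listed at 0 in every sample, which can be a failed estimate.

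Acid-sensing channels, which respond to protons and have been linked to touch and muscle sensation, moved in both directions. Asic2 rose in MACS-sorted against unsorted DRG with a log2 fold change of 0.72 (SE 0.082, limma adjusted p = 8.154e-05), to 55.0 ± 5.62 from 33.1 ± 1.51 FPKM (SD, n = 4). Asic3 fell with a log2 fold change of -2.15 (SE 0.25, limma adjusted p = 0.000105), to 10.7 ± 3.80 from 45.2 ± 4.79 FPKM (SD, n = 4). Asic1 fell with a log2 fold change of -1.82. Asic1 had risen by 0.96 between intact and unsorted DRG, and Asic2 by 0.32. Intact replicate 1 was the lowest of its group for Asic1, at 8.93 FPKM against 13.8 to 15.6 in the other intact samples.

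Of 10 other candidate mechanosensitive channels tested, 4 rose and 3 fell between unsorted and MACS-sorted DRG, where 18.8% and 27.7% of all genes did. Trpc6, a cation channel of sensory neurons, rose with a log2 fold change of 1.04 (SE 0.11, limma adjusted p = 6.666e-05), from 5.78 ± 0.361 to 12.1 ± 1.95 FPKM (SD, n = 4), and the irritant receptor Trpa1 rose with 0.80. The polycystins Pkd2 and Pkd1 fell, with -1.67 and -0.38. Tmem63b, a stretch-activated channel, had -0.29, after a rise of 0.57 between intact and unsorted DRG. Between MACS-sorted and intact DRG, Tmem63b did not pass (0.28, limma adjusted p = 0.0817). Of 7 potassium channels that set mechanical excitability, 6 fell. Kcna1, which brakes the mechanical response of some sensory neurons, fell with a log2 fold change of -3.11 (SE 0.15, limma adjusted p = 5.144e-07), from 80.5 ± 4.88 to 9.41 ± 1.99 FPKM (SD, n = 4), and Kcna2 fell with -1.58. The exception was Kcnk18, or TRESK, which rose by 0.70.

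Known regulators of Piezo channels moved in both directions. Of 6 tested, 1 rose and 3 fell between unsorted and MACS-sorted DRG, beside 18.8% and 27.7% of all genes. With 6 genes, these counts cannot be set apart from those shares. Markers of glia and fibroblasts fell in the same comparison, and which cells make these regulators was not tested. Mdfic, an auxiliary subunit of Piezo channels, fell with a log2 fold change of -2.995 (SE 0.46, limma adjusted p = 0.000531), from 2.98 ± 0.595 to 0.340 ± 0.224 FPKM (SD, n = 4). Atp2a2, a calcium pump that inhibits Piezo channels, fell with -0.83, and Mtmr2, a phosphatase that restrains Piezo2 currents, with -0.57. Atp2a2 had risen by 0.70 between intact and unsorted DRG. Against intact DRG, Mdfic and Mtmr2 were lower in MACS-sorted DRG (-3.20 and -0.34), while Atp2a2 did not pass (-0.13, limma adjusted p = 0.623). Tmem120b, a relative of Tmem120a, rose with 0.38. Among 5 genes of mechanosensory structures, Whrn, which marks proprioceptors and is also on the large-diameter list, fell with -1.94 and Tmc7 with -1.34.

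**Figure D4:**
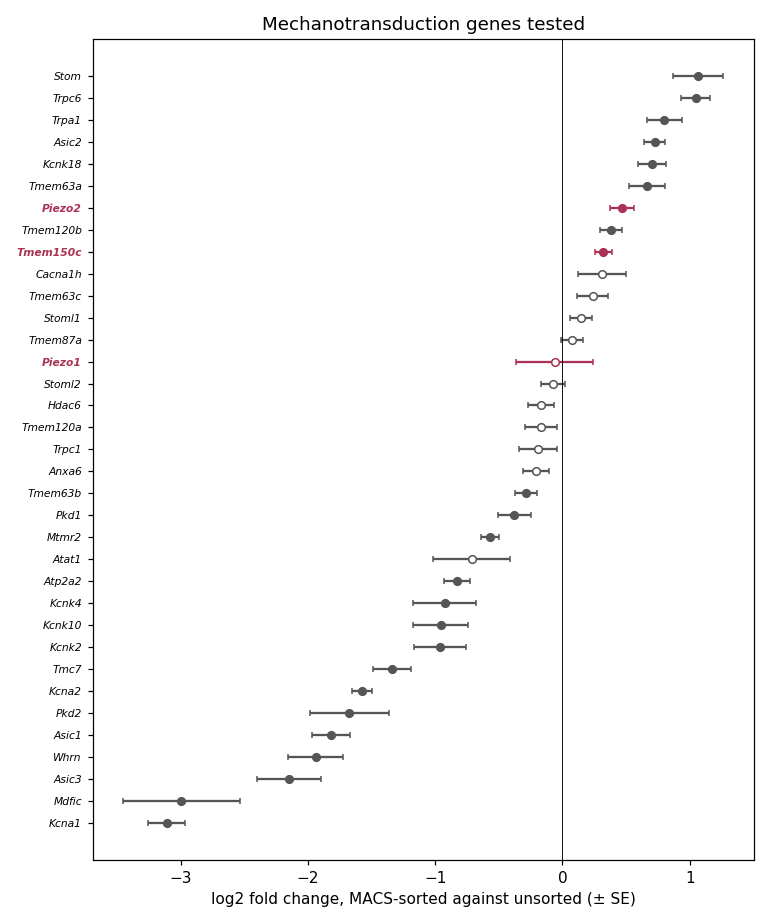
Log2 fold changes of MACS-sorted against unsorted DRG (horizontal axis, ± SE, log2(FPKM + 0.1)) for 35 mechanotransduction genes, sorted by size. Red marks are Piezo1, Piezo2 and Tmem150c, grey marks the other genes, filled circles passed limma's adjusted p under 0.05 and open circles did not. The values run from -3.11 for Kcna1 to 1.07 for Stom, with Piezo2 at 0.47 and Tmem150c at 0.32.

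Finally, the genes with the most similar profiles were listed, by the root mean square difference of log2 values centred on each gene's own mean over the 12 samples, among 12282 genes. For Piezo2 they were Unc13a (0.11), Wdr81 (0.12), Lyst (0.13), Ckap5 (0.13) and Soga3 (0.14), beside a root mean square of 0.39 for Piezo2 itself. For Tmem150c they included Stip1 (0.06), Tprn (0.06), Dmtn (0.07) and Wdr1 (0.07), beside 0.22. For Piezo1 they were Rad18 (0.16), Zufsp (0.16), Zfp707 (0.17), Fnip2 (0.17) and Smek1 (0.17), beside 0.31. The match was closest for Tmem150c, which varied least.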

How the data were processed

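RNA was poly(A)-selected, and libraries were prepared with a directional kit and read on the HiSeq2500. The authors aligned reads to mm10 with TopHat2, merged lanes with SAMtools and ran Cufflinks 2.1.1, per the labels and the paper. The table the authors deposited gives FPKM for 24490 genes in 12 samples, and no counts were used. The study tested genes with CuffDiff, which needs aligned reads. Here limma 3.58.1 (R 4.3.3, trend, Benjamini-Hochberg over all genes tested) was fitted to log2(FPKM + 0.1) for the 8 samples compared, with genes under a mean of 1 FPKM left out. The pseudocount of 0.1 understates the fold changes of low genes. Errors are SD, n = 4. Genes were called to rise or fall at an adjusted p under 0.05.

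Replicates come from separate mice or pools of mice, and their p-values measure that spread. Ratios were tested by exact two-sided permutation with scipy 1.17.1. The planned ratios of Stoml3 were not computed, because it was at 0 in most samples, so adjustment was over 6 and 9 tests. Depth was estimated from low FPKM values of genes with 1 GENCODE M21 transcript, with a fragment length of 200 bases, and 3 fragments served as the floor. Intervals and floors cover counting error only. Methods were tested on simulated data. Pseudocounts, filters, scalings, fits and single samples were varied. The genes and lists were chosen with earlier results of these data known. Named genes are the 4 genes, at most 3 per direction and list that passed the test, and the 5 nearest profiles of each gene but Stoml3. Some genes that this rule names are left out of the text and figures but stay in the fits and list counts. Stoml1, Stoml2, Tmem150a, Tmem150b, Ntrk2, Snap25, Tubb3 and Calb1 were named after their values were seen.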

Additional observations from a re-analysis of the deposited data

Results flagged for a closer look

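Among the 4 genes and the other mechanotransduction genes that averaged 1 FPKM or more over all samples, 105 groups of 4 samples were examined, and in 10 (9.52%) the most extreme sample lay far from the others by Dixon's test, which chance alone does in about 1 in 20 groups. Piezo2 was at 29.0 FPKM in intact replicate 1, against 54.2 to 57.5 in the other 3. In the same sample Tmem63c was at 14.5 FPKM (others 24.8 to 26.2), Trpc1 at 4.78 (others 8.87 to 8.99) and Atat1 at 3.19 (others 4.67 to 4.74). Tmem150c was at 40.2 FPKM in MACS-sorted replicate 2, against 34.1 to 35.1. In unsorted replicate 3, Anxa6 was at 246 FPKM (others 212 to 216), Asic1 at 31.3 (others 23.2 to 24.2) and Tmem63b at 61.1 (others 51.3 to 52.6). In MACS-sorted replicate 4, Trpc1 was at 6.01 FPKM (others 8.67 to 9.21) and Kcnk2 at 1.69 (others 3.10 to 3.20).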

How the results depend on the processing

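Of 471 values obtained for 30 results under the alternatives, 23 lost the threshold, 11 counts moved by over 1.5 times and 12 took the other sign, none of them past the threshold before or after. The remaining 425 kept direction and side of the threshold, stayed within 1.5 times (counts) or, where no test was possible, moved by less than 1 SD. The causes were not tested. Under quantile normalization the log2 fold change of Piezo1 turned to 0.55 against unsorted and 0.68 against intact DRG for MACS-sorted samples, and relative to pan-neuronal genes to 0.52 and 0.38, all short of the threshold. Leaving out single samples, the first pair ranged from -0.086 to 0.12 and from -0.35 to 0.025. Without MACS-sorted replicate 1 or 4, Piezo1 fell under the filter against unsorted DRG, as it did in all comparisons with a filter of 5 FPKM and for unsorted against intact DRG under quantile normalization.

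Piezo2 lost its call against unsorted DRG with all 12 samples in 1 fit (0.47). Against intact DRG it lost it under quantile normalization (0.67), with red blood cell genes (0.74) or skeletal muscle genes (0.70) removed, and without MACS-sorted replicates 3 and 4 together (0.64), and ranged from 0.49 to 0.81 without single samples.

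Tmem150c lost its call for unsorted against intact DRG with median-ratio factors and all 12 samples in 1 fit or no trend (0.19 each), quantile normalization (0.14), red blood cell (0.17) or skeletal muscle genes (0.17) removed and unsorted replicates 1 and 2, the closest pair, averaged (0.20), and ranged from 0.17 to 0.21 without single samples. With the replicate block it was 0.19 (adjusted p = 0.125). The replicate numbers did not pair the samples, with correlations of same-numbered deviations from -0.143 to 0.067. The block changed no other call of Piezo1, Piezo2 or Tmem150c. Among the other mechanotransduction genes, those that fell went from 2 to 3 for unsorted and from 12 to 10 for MACS-sorted against intact DRG.

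For the other mechanotransduction genes, the 10 that rose from intact to unsorted DRG became 4 with red blood cell or skeletal muscle genes removed or the closest pair averaged, and 4 to 13 without single samples. The 2 that fell became 1 with all 12 samples in 1 fit, and 2 to 4 without single samples. With a filter of 5 FPKM, 9 fell against unsorted and 6 against intact DRG in MACS-sorted samples. Without intact replicate 1 the log2 ratio of Tmem150c to Piezo2 turned to 0.18 for unsorted and 0.03 for MACS-sorted against intact DRG. Relative to pan-neuronal genes, Piezo1 turned to 0.08 without MACS-sorted replicate 2 against unsorted DRG, and Piezo2 for unsorted against intact DRG to 0.04 and 0.01 without intact replicate 2 or 3. The averaging, the muscle removal and the joint removal of replicates 3 and 4 were chosen after seeing the data. Permutation tests without 1 sample cannot reach the threshold and were read as values. Depth limits Stoml3, which has no alternative values except without a filter (adjusted p = 0.828, 0.250 and 0.212 by limma), and the depth itself is an estimate.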
